A study of Caenorhabditis elegans with 2 samples.

Results

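The genes described here are rpr-1, which encodes the RNA of ribonuclease P (RNase P), and mrpr-1, which encodes the RNA of the related ribonuclease MRP. They are 2 of the 46890 annotated Caenorhabditis elegans genes, and every peak with its summit within 500 bp of either gene was taken. The peaks came from chromatin immunoprecipitation followed by sequencing (ChIP-seq) of F26F4.8, a protein that RefSeq annotates with a C2H2-type domain, fused to TY1, EGFP and 3xFLAG tags. There was 1 group, whole L4 larvae of strain OP776 aged 48 hours and grown from starved L1 larvae after bleaching. The strain carries the insertion wgIs776 with the unc-119(+) marker in an unc-119 (tm4063) background, so a single transgenic line was sampled. The group had 2 biological replicates, and DNA was sheared to 200 to 800 bp by sonication. The description named an anti-GFP antibody for the precipitation, while the antibody field of the labels named F26F4.8. Without an untagged or mock precipitation to set them against, the values place the genes among the other peaks of the same lists and make no contrast between conditions.

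RNase P is the ribonucleoprotein enzyme that removes the 5′ leader of precursor tRNAs, and its RNA carries the active site. RNase MRP shares most of its protein subunits with RNase P in yeast and human cells, has its own RNA, and takes part in the processing of precursor ribosomal RNA. In vertebrates both RNAs are made by RNA polymerase III from a promoter that lies upstream of the gene, as it does for U6 small nuclear RNA. That promoter holds a proximal sequence element, which binds the small nuclear RNA activating complex (SNAPc), and a TATA box. Vertebrate small nuclear RNA genes with the proximal element but no TATA box are transcribed by RNA polymerase II. Genes for tRNAs use another design, with an A box and a B box inside the gene that are bound by the factor TFIIIC.

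The DNA upstream of both genes held the same pair of short motifs at nearly the same distance from the 5′ end. The first was AACCC and TGTC separated by 6 bases, called the upstream element here, and the second was TATATA. The sequences below give the 90 bp before the 5′ end, on the gene's strand, for mrpr-1, for U6 genes with a strong peak and the full element, and for other small nuclear RNA genes with the full element but no TATATA. They are shown because the later comparison of genes turns on these letters. They were read from the RefSeq genome of WBcel235 and run 5′ to 3′, with the element's fixed bases and TATATA in capitals. The mrpr-1 stretch is chrII:7200143-7200232 on the plus strand, and the others lie on chromosomes III (W05B2.8 and F54D8.7), V (T27E4.12) and IV (Y69A2AR.36).
mrpr-1: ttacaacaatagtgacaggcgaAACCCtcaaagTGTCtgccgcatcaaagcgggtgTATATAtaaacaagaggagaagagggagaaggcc
U6 gene W05B2.8: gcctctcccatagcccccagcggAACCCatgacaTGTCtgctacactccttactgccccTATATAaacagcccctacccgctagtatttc
U6 gene F54D8.7: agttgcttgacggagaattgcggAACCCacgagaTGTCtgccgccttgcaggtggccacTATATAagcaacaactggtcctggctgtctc
small nuclear RNA gene T27E4.12: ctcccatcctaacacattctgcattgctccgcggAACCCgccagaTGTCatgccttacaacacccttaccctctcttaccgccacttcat
small nuclear RNA gene Y69A2AR.36: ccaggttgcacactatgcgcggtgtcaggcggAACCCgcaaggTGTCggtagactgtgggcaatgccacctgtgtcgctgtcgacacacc

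The mrpr-1 gene itself is printed because its peak summits fall inside it. The stretch is chrII:7200233-7200438 on the plus strand and covers the 186 bp gene and the 20 bp after it. The capital C letters within the first part mark the summit bases of the pooled list and of replicate 1, at 39 bp, and of replicate 2, at 53 bp from the 5′ end, counted from 0. The capital T letters mark a run of at least 4 T at the gene's end, the kind of sequence at which RNA polymerase III stops. Other runs of 4 T, within the gene and after it, are left in small letters.
mrpr-1 gene: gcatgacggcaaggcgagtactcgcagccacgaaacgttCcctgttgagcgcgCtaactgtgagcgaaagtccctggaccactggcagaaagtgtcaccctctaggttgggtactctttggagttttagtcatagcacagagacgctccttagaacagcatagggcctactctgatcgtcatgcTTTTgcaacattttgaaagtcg

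The genes sit in different surroundings. In Ensembl release 115 on WBcel235, the assembly that ce11 names, mrpr-1 (WBGene00045095) spans 7200233 to 7200418 on chromosome II, plus strand, between genes. Its left neighbour E04F6.6 ends 667 bp away, and pcrg-1, which encodes a homologue of the Parkin co-regulated gene product, starts 130 bp after its 3′ end. The rpr-1 gene (WBGene00045238) spans 13463955 to 13464207 on chromosome I, plus strand, and is 253 bp long. It lies antisense within a 2023 bp intron of ints-8, the gene for a subunit of the Integrator complex, which trims the 3′ ends of small nuclear RNAs. That intron is the fifth of 9 in transcript Y48G10A.4a.1 and the first of 5 in Y48G10A.4b.1. The genes on either side of ints-8 are Y48G10A.6, 11109 bp to the left of rpr-1, and Y48G10A.3, 6384 bp to its right. RefSeq gives both RNA genes the same ends as Ensembl. Neither gene had another match in the genome in a BLAST search, so reads that fall within them have a single place to align.

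Both RNA genes carried a strong peak in all 4 ranked lists and in all 4 thresholded lists. The pooled lists share the replicates' reads, so the lists are not independent and rest on 2 replicates. The list on pooled reads that paired the replicates gave the conservative set, another was made on pooled reads, and each replicate had its own. At rpr-1 the signal, the peak caller's enrichment in arbitrary units, was 331.7 on pooled reads, 193 in replicate 1 and 141 in replicate 2. At mrpr-1 it was 186.5 on pooled reads, 103 in replicate 1 and 83.6 in replicate 2. The scale of the signal is not stated to be common to the lists, so the lower numbers in the lists of single replicates are not a difference in binding, and rank was used instead.

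The rpr-1 peak was number 29 of 109990 ranked pooled peaks, number 27 of 64220 in replicate 1 and number 37 of 59972 in replicate 2. It stood within the top 0.0264%, 0.0420% and 0.0617% of these lists. The mrpr-1 peak was number 94 on pooled reads, number 96 in replicate 1 and number 132 in replicate 2, within the top 0.0855%, 0.149% and 0.220%. For comparison, the thresholded lists kept 0.889% of the ranked peaks in the conservative set, 0.875% in the other pooled set, 0.585% in replicate 1 and 0.61% in replicate 2. In the thresholded lists rpr-1 was number 7 of 978 in the conservative set, number 5 of 376 in replicate 1 and number 11 of 366 in replicate 2. The corresponding places of mrpr-1 were 51, 52 and 77. The order of the genes was thus the same in both replicates, with rpr-1 higher in each, as the plot of signal by rank shows.

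**Figure D1:**
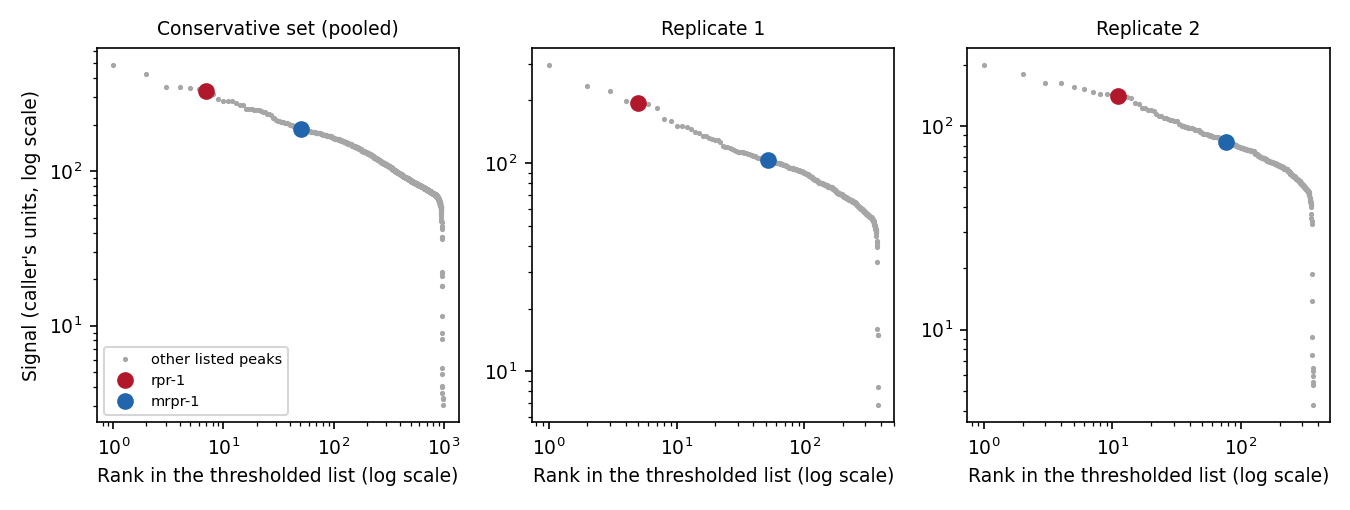
Signal of each peak (caller's arbitrary units, log scale) against its rank (log scale) in the thresholded list of the conservative set, of replicate 1 and of replicate 2. Each grey point is a listed peak, the red point is the peak at rpr-1 and the blue point the peak at mrpr-1, which is number 7 and number 51 of 978 in the conservative set.

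The signal at rpr-1 was 1.78 times that at mrpr-1 on pooled reads, 1.88 times in replicate 1 and 1.69 times in replicate 2. On the log2 scale these are differences of 0.83, 0.91 and 0.75. For scale, each replicate's signal was divided by its median over the 954 conservative peaks that had a peak in both replicates. The log2 values of replicate 1 minus replicate 2 then had an SD of 0.389 over those peaks. The same difference was 0.27 at rpr-1 and 0.11 at mrpr-1, both smaller than that SD. The log2 difference between the genes was larger than that SD in each replicate. Those 954 peaks were kept for agreement between the same replicates, so the SD may understate the spread over peaks at large. With 2 replicates of 1 group there was no test to make over samples.

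Each replicate's own list came from matching a pair of peak lists, and the matched signals had the same order. Each pair lies within 1 replicate, so it is no further evidence beyond that replicate's own signal. At rpr-1 they were 109.6 and 90.7 in replicate 1 and 67.4 and 70.7 in replicate 2. At mrpr-1 they were 45.3 and 54.7 in replicate 1 and 33 and 51.9 in replicate 2. The rpr-1 values lay above the mrpr-1 values within each replicate, without overlap. The irreproducible discovery rate (IDR) estimates how many calls as strong as a given one would fail to recur, and is given here as its −log10. It was 4.33 at rpr-1 on pooled reads and stood at the cap of 5 in both replicates. At mrpr-1 it was 3.66 on pooled reads, 3.52 in replicate 1 and 3.54 in replicate 2, past the authors' limit of 0.01 and also past an IDR of 0.001. The replicate values compare lists within 1 replicate. Only the pooled values, from the list that paired the replicates, compare the replicates with each other.

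Of the 6 peaks next to rpr-1 in rank 4 lay within 200 bp of snoRNA genes, which encode guides for RNA modification, and of the 6 next to mrpr-1 there were 0. Just above rpr-1 in the pooled ranked list stood peaks nearest the snoRNA gene W03C9.9 (349.6), the ncRNA gene T03F7.14 (343.5), which also has a snoRNA gene beside it, and the snoRNA gene ZK265.10 (342.1). Below it stood a peak beside the snoRNA gene Y23H5B.10 (316.9) and 2 unlisted peaks, nearest Y95D11A.5 (322.5) and Y73F4A.1 (312), the closest RNA genes being 3615 and 12173 bp away. Above mrpr-1 were peaks nearest the protein-coding genes F57A10.2 (190.9), clc-23 (189) and C36E6.8 (188.1). Below it were those nearest ftn-1 (186.2), which encodes a ferritin, the tRNA gene F34H10.T1 (185.7) and cin-4 (185.2), which encodes a DNA topoisomerase. The peak nearest clc-23 was not in the conservative set. With peaks at tRNA and snoRNA genes set aside, rpr-1 was number 2 of the remaining 594 conservative peaks and mrpr-1 number 13. Among the 78 of these that lay at other annotated RNA genes, rpr-1 was number 1 and mrpr-1 number 3, with the U6 gene W05B2.8 (269.6) between them.

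A conservative peak within 500 bp was uncommon for annotated genes at large. It was present for 3.64% of all 46890 genes, and for 3.58% in the other pooled set, 1.72% in replicate 1 and 1.7% in replicate 2. Among the 7160 ncRNA genes that lie away from genes of the other RNA classes, the group that holds both RNase RNA genes, 71 had one, or 0.992%. Among the 612 tRNA genes, 384 had one (62.7%), and among the 346 snoRNA genes 53 had one (15.3%). Among the 23 U6 genes, 9 had one (39.1%, 95% Wilson interval 22.2 to 59.2), and among the 106 other small nuclear RNA genes 6 had one (5.66%, 2.62 to 11.8). With both members listed, the pair is too small for a share of its own.

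The peaks covered the start of each gene, and they differed in position and width. At rpr-1 the pooled summit lay 13 bp inside the gene, that of replicate 1 lay 19 bp inside and that of replicate 2 lay 1 bp upstream of the 5′ end. At mrpr-1 the pooled summit and that of replicate 1 lay 39 bp inside and that of replicate 2 lay 53 bp inside. The summits of mrpr-1 thus lay farther in than those of rpr-1 in each list, while the summits of either gene moved between replicates by 20 bp at rpr-1 and 14 bp at mrpr-1. The peak at rpr-1 was 184 bp wide on pooled reads, 134 bp in replicate 1 and 70 bp in replicate 2. Those at mrpr-1 were 264, 256 and 244 bp wide, which are the usual widths in these lists, shared by 96.2%, 96.3% and 95.1% of thresholded peaks. The narrower width was not particular to rpr-1. The listed peaks next to it in rank, nearest W03C9.9, T03F7.14, ZK265.10 and Y23H5B.10, were also narrower than usual, while the unlisted ones had the usual width. A summit in a peak of the usual width sits at its middle.

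**Figure D2:**
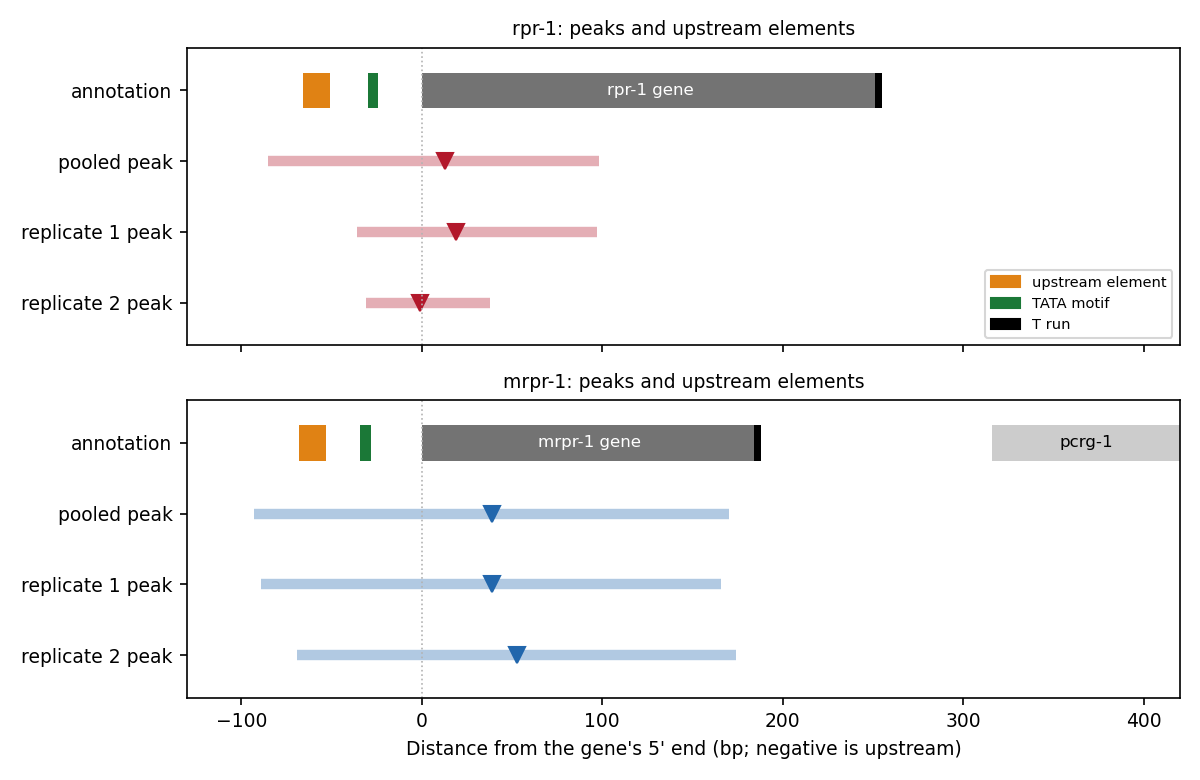
Peaks at rpr-1 (top) and mrpr-1 (bottom) against distance from the gene's 5′ end in bp. Pale bars are peak extents and triangles are summits in the pooled list, replicate 1 and replicate 2. The annotation row shows the gene in dark grey, the start of pcrg-1 in light grey, the upstream element in orange, the TATA motif in green and the run of T at the gene's end in black. Every summit lies between 1 bp upstream and 53 bp inside the gene, and the upstream element lies before it in each case.

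Both peaks lay nearer to the RNA gene than to the start of a protein-coding gene. The nearest protein-coding transcription start site (TSS) was that of ints-8 for rpr-1, 878 bp from the pooled summit. For mrpr-1 it was that of pcrg-1, 277 bp from the pooled summit, 277 bp in replicate 1 and 263 bp in replicate 2. The pcrg-1 start lay outside the mrpr-1 peak in all lists, although within 500 bp of its summit. A second, weak ranked peak lay on the far side of mrpr-1 in 2 lists, with its summit within the pcrg-1 gene. That summit lay 386 bp past mrpr-1 in the other pooled list (signal 17.1, number 76110 of 109723) and 374 bp past it in replicate 1 (17.8, number 33505 of 64220). The weak peak passed no threshold. Whether any of the signal at mrpr-1 belongs to pcrg-1 was not tested.

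The pooled summit positions were within the range seen at U6 and tRNA genes. At 8 conservative peaks with a U6 gene within 200 bp, the median summit lay 21.5 bp from the 5′ end (quartiles 9.25 and 30.75), with 6 of 8 inside the gene. At 332 peaks at tRNA genes the median was 22.5 bp (8 and 42). At 47 peaks at snoRNA genes the median position was -32 bp (-48 and -11), which is upstream. The pooled rpr-1 summit fell within the quartiles of both U6 and tRNA genes. The pooled mrpr-1 summit, at 39 bp, was within those of tRNA genes and beyond the upper quartile of U6 genes. In replicate 1 both summits, at 19 and 39 bp, lay within the tRNA quartiles (10 and 41) and above the U6 ones (8.25 and 17.75). In replicate 2 the rpr-1 summit, at -1 bp, lay below the quartiles of tRNA (5 and 40) and U6 genes (11 and 24). The mrpr-1 summit there, at 53 bp, lay above both.

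**Figure D3:**
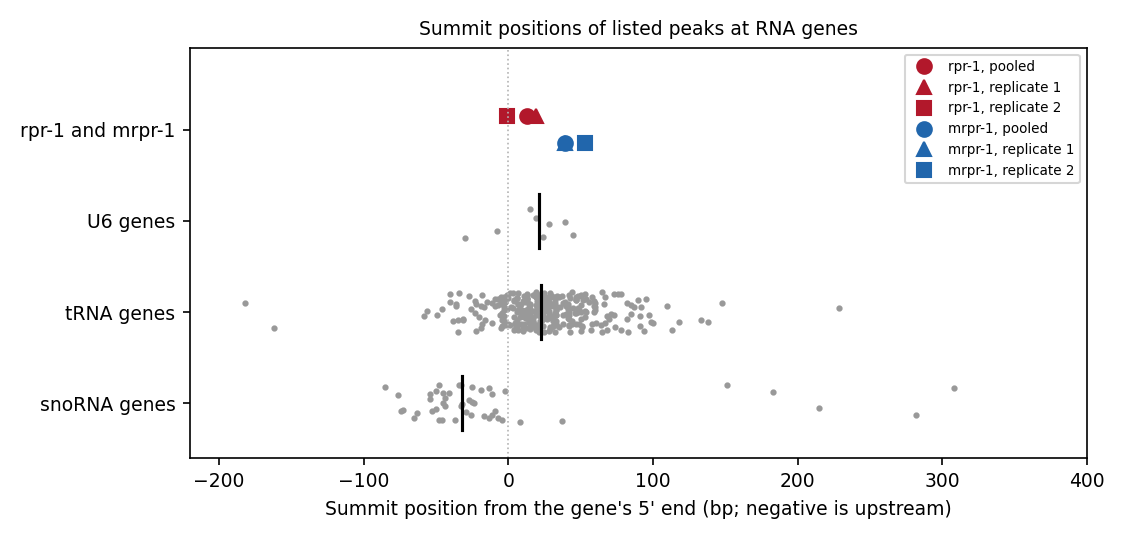
Summit position from the gene's 5′ end in bp for conservative peaks within 200 bp of an RNA gene. Coloured symbols in the top row are rpr-1 (red) and mrpr-1 (blue) in the pooled list (circle), replicate 1 (triangle) and replicate 2 (square). Grey points are single peaks at U6, tRNA and snoRNA genes, with the median as a black bar at 21.5, 22.5 and -32 bp.

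The internal boxes of tRNA genes were not found at either gene. An A box (by its consensus) or a B box, read as GGTTCGA and CC separated by 2 bases, was searched for on both strands within 100 bp of each summit, with at most 1 mismatch. The boxes do not overlap each other in a tRNA gene. At rpr-1 and mrpr-1 there were 0 matches in all 4 lists, and the closest stretches had 2 mismatches to the A box and 3 to the B box. The U6 peaks were alike in this, with 0 of 8. Of the conservative peaks as a whole 484 of 978 (49.5%) held a box, as did 38 of 47 (80.9%) at snoRNA genes and 6.92% of all ranked peaks. The tRNA genes hold the boxes as part of their own sequence, and 95.2% of their peaks had one.

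The upstream element and TATATA were taken from the members' own sequences after their peaks had been seen, so their presence there is no finding. At rpr-1 the element started 66 bp and TATATA 30 bp upstream of the 5′ end. At mrpr-1 the distances were 68 and 34 bp. Both genes matched all 9 fixed bases, and a run of at least 4 T began at the base before the last in each gene. Such a run is common, and was found near the 3′ end of 46.8% of all genes. Of 26 aligned bases around the element, 20 were identical in the 2 genes. This stretch was found within the 90 bp compared, and it counts the element's fixed bases, which these genes supplied. The pooled summit lay 65 bp past the end of the element at rpr-1 and 93 bp past it at mrpr-1, and the pooled peak took in the element at both genes. At rpr-1 this did not hold in either replicate, where the peak started at -36 bp (replicate 1) and -31 bp (replicate 2) from the 5′ end, past the element. At mrpr-1 the replicate peaks started at -89 and -69 bp and took in the element.

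What the members did not fix is which other genes hold the motifs and have a peak. The element, with at most 1 mismatch on the gene's strand from 90 to 30 bp upstream, was found at 0.610% of all 46890 genes and TATATA from 45 to 10 bp upstream at 2.43%. Both were found at 21 genes, or 0.0448%. Among them were 13 of the 23 U6 genes and yrn-1, which encodes a Y RNA, both kinds of gene that use this promoter in vertebrates. The other RNA gene with both was smy-1, annotated as a small nuclear RNA. With rpr-1 and mrpr-1 this made 17 RNA genes. The element started 66 to 68 bp upstream in 16 of them, and 59 bp upstream in smy-1.

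Of these 17 RNA genes 11 had a conservative peak within 500 bp (64.7%, 95% Wilson interval 41.3 to 82.7). Without rpr-1 and mrpr-1 the number was 9 of 15 (60%, 35.7 to 80.2). It was 8 of 15 in the other pooled set, 7 of 15 in replicate 1 and 5 of 15 in replicate 2. The 9 were 8 U6 genes and yrn-1. Their signals ran from 68.9 at F54C8.9 to 269.6 at W05B2.8, with yrn-1 at 99.5. F54D8.7 had 174.7, Y9C9A.111 had 161.6 and C28A5.7 had 135.5, while K09C6.12 (117.6), T08B6.62 (107.1) and R07E5.16 (98.4) were lower. The remaining listed U6 gene, F36A4.23 (77.0), held neither motif, and its summit lay 344 bp outside the gene. The rpr-1 signal was above all of them and that of mrpr-1 above all but W05B2.8. Summits lay from 30 bp upstream to 45 bp inside, and 9 of the 11, members included, were inside the gene.

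The element alone was rarely beside a peak, as was true of annotated genes at large (3.64%). Of 143 RNA genes with the element but no TATATA, 6 had a conservative peak (4.20%, 1.94 to 8.85). The intervals treat genes as independent, which the U6 genes that make up most of those with both motifs are not. They were therefore not used to compare the groups. Small nuclear RNA genes other than U6 made up 54 of the 143, with 1 peak among them, at sls-2.15. In these genes the element most often started 58 to 59 bp upstream (33 of 54), closer to the gene than in rpr-1, mrpr-1 or any of the 13 U6 genes with both motifs. T27E4.12 and Y69A2AR.36, printed above, carry the full element, and their strongest ranked peaks had signals of 64.4 and 61.1 and were not listed. TATATA without the element had a peak at 19 of 131 RNA genes (14.5%, 9.49 to 21.5), and genes with neither motif at 794 of 9035 (8.79%, 8.22 to 9.39), tRNA genes included. That order did not hold in replicate 2 alone, where TATATA without the element had a peak at 6 of 131 genes (4.58%) and neither motif at 466 of 9035 (5.16%). In replicate 1 the shares were 11.5% and 5.15%. The tRNA and snoRNA genes raise the share with neither motif. Outside them and the members, a conservative peak was present at 3 of 103 genes with the element alone (2.91%, 0.995 to 8.22). It was present at 14 of 120 with TATATA alone (11.7%) and at 365 of 8128 with neither (4.49%). The element alone was thus not set apart from genes with neither motif. The median of the strongest ranked signal was 103.3 over the 16 genes with both motifs and a ranked peak, and 41.3 over the 118 with the element alone. The 16 count rpr-1 and mrpr-1, which supplied the motifs. Over the 12 U6 genes among them the median was 102.8. U6 genes are near copies of each other, each with at least 22 other matches of 90% identity or more in the genome, so reads within them can be shared between copies. That is not so of rpr-1 and mrpr-1. The share rests mostly on U6 genes, and these comparisons are descriptions, with no test made.

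**Figure D4:**
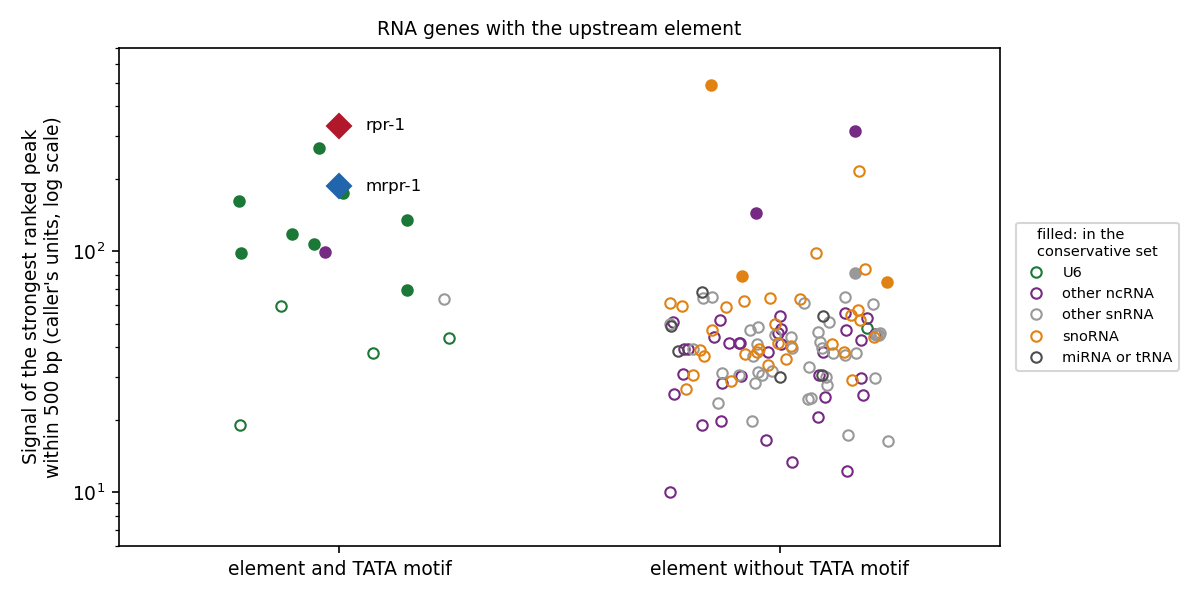
Signal of the strongest pooled ranked peak within 500 bp (caller's arbitrary units, log scale) of RNA genes that hold the upstream element with the TATA motif (left) and without it (right). Each circle is a gene, coloured by class and filled where a conservative peak lies within 500 bp. Diamonds mark rpr-1 at 331.7 and mrpr-1 at 186.5. Genes with no ranked peak are not drawn.

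The genes for the protein partners of the RNAs had no listed peak, like most protein-coding genes. The list of RNase P and MRP proteins had 6 genes, named by RefSeq products. None of the 6 had a thresholded peak within 500 bp of a TSS in any list, and 4 had a ranked peak there. The signals were 37.5 at popl-1, 30.3 at Y62E10A.24 (subunit p20), 30.02 at popl-5 and 14.9 at popl-4 (subunit p29). The genes H35B03.2 (subunit p30) and Y37E11AM.4 had no ranked peak there. Their median of 30.2 is close to the 30.6 over all protein-coding genes with a ranked peak, of which 1.65% had a conservative one. The list of the RNA polymerase III machinery had 33 genes, for the polymerase, TFIIIC, TFIIIB, SNAPc, the La protein and the repressor Maf1. They were alike, with a ranked peak at 27, a listed one at 0 and a median of 27.0. At a share of 1.65%, lists with 4 and 27 ranked genes would mostly hold no listed peak, so the 0 is nothing particular to these genes. The signals at the RNase RNA genes were 331.7 and 186.5, and those at the genes of their proteins were 37.5 at most, all of them pooled signals in the same list.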

How the data were processed

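The members, motifs and gene lists were chosen with earlier results of these data known. Peak lists on ce11 were deposited by the authors, 1 ranked and 1 thresholded list for each of 2 replicates and 2 of each for pooled reads. Aligner, caller and read numbers: not given in the sources used here. Depth is therefore unknown. The deposited signal is the authors' enrichment per peak in arbitrary units, and it ranked peaks only within a list. The −log10 values deposited by the authors are of the IDR, per the labels and the file records, capped at 5. The deposited score runs to 1000 and the lowest in the conservative set is 830. Other deposited columns are positions and summits, per the labels; 4 columns of matched values in the pooled lists were not used.

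Summits were assigned to Ensembl release 115 genes within 500 bp (200 bp for summit positions) with Python 3.11.15, numpy 2.4.6 and pandas 2.3.3. Copies were searched with BLAST 2.17.0. U6 genes were recognised by a 16 bp core. Shares have 95% Wilson intervals, which cover counting error only. The assignment of summits and the motif search were tested on simulated data. Genes named in the text are the members, their hosts and neighbours, the 3 peaks ranked above and below each, other RNA polymerase III genes with a listed peak, and the protein lists. For the protein list of the machinery, genes with a listed peak were to be named, and there was none. The genes with the upstream element were named after their values were seen. No annotated gene for signal recognition particle RNA was found, and no 5S rRNA gene was listed. Alternatives were other lists, windows, a stricter IDR and other motif limits.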

Additional observations from a re-analysis of the deposited data

How the results depend on the processing

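Both RNase RNA genes kept a peak in all 4 thresholded lists with windows of 200 and 1000 bp, at an IDR of 0.001 and by overlap. The 26 of 102 alternative values that moved past the limit set for them are given here. The limit was the SD of the 2 replicates for ranks and summits, and the Wilson interval for shares. For counts it was a fixed factor, or any change where the count was 0. Ranked by score, both stood within the top 0.643%, since 707 pooled peaks share the top score of 1000. Leaving out one replicate put rpr-1 within the top 0.0420% to 0.0617% and mrpr-1 within the top 0.149% to 0.220%, in shorter lists, and the mrpr-1 summit at 39 to 53 bp; that of rpr-1 went from 1 bp upstream to 19 bp inside. With 2 mismatches allowed, 1 box match appeared at each gene. Shares of genes with a peak were 36.4% to 36.6% for tRNA, 21.7% to 26.1% for U6 and 0% to 2.83% for other small nuclear RNA genes with one replicate left out. At an IDR of 0.001 they were 22.9%, 17.4% and 0.943%, and 11.8% for snoRNA genes; within 200 bp the tRNA share was 58.8%. The median U6 summit was 24 bp in the other pooled set or within 500 bp, and 13 to 16 bp with one replicate left out; that of tRNA genes was 20 to 23.5 bp. Of the settings chosen after seeing the data, an element without mismatches gave a peak at 83.3% of genes with TATATA, and leaving out one replicate gave 41.2% to 52.9%, against 1.40% to 2.10% for genes without TATATA. These shares count rpr-1 and mrpr-1, which supplied the motifs. Without them the share was 75% (3 of 4 genes) with no mismatch, 33.3% to 46.7% with one replicate left out, and 50% (1 of 2) with U6 genes also left out, so it rests on few genes and mostly on U6. No paired analysis was possible because there is 1 group. With 2 replicates and no read numbers, depth sets no limit that can be stated.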

Other observations

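At the 6 RNA genes with the element but no TATATA that had a conservative peak, the summit lay outside the gene. At ZK994.7, a snoRNA gene with the highest signal of the conservative set (488.1), it lay 11 bp upstream of the gene. At the others it lay past the 3′ end, 143 bp from the 5′ end at sls-2.15 (81.4), 194 bp at Y23H5B.13 (316.9), 282 bp at F54F11.6 (74.9), 389 bp at C16D9.10 (78.8) and 696 bp at lfor-1 (143.8). Of these, 3 lay at another gene: the Y23H5B.13 peak 50 bp from the snoRNA gene Y23H5B.10, the lfor-1 peak inside the tRNA gene C38C6.T1 and the C16D9.10 peak 8 bp from the tRNA gene C16D9.T4. Which gene these peaks belong to was not tested.

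Of the 17 RNA genes with both motifs 6 had no conservative peak. The U6 gene Y17G9A.85 matched the element without mismatch and had a ranked summit 23 bp inside the gene with a signal of 59.4, at rank 2635. The strongest ranked peaks within 500 bp of the U6 genes K09B11.11 (43.7), K09B11.14 (37.8) and F54C8.10 (19.1) and of smy-1 (63.6) had summits outside the gene, and K09B11.16 had no ranked peak in that window. These genes were named after their values were seen.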
